A study of Mus musculus with 3 samples.

Results

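The genes described here are 8 cadherins of the kidney lineages, *Cdh1*, *Cdh2*, *Cdh3*, *Cdh4*, *Cdh5*, *Cdh6*, *Cdh11* and *Cdh16*, 8 of the 32285 genes in single-cell RNA-seq libraries of mouse kidneys at E15.5 (days after conception). They were taken by gene symbol with no filter on their values, but earlier results of these data were known when they were chosen. Each library held 1 group, so there was no replicate, no test was possible, and each comparison below sets 1 library against another. The *Enl*-T1 embryos were *Enl* flox-T1/+ *Wt1* GFPCre/+, with 1 allele of *Enl* (*Mllt1*, encoding a chromatin reader) switched by Cre to the T1 mutant found in Wilms tumour. The *Enl*-WT embryos were *Enl* +/+ *Wt1* GFPCre/+, and so, like the mutants, they had lost 1 working copy of *Wt1* to the Cre insertion. Cre came from the *Wt1* promoter, which per the study acts in progenitors of the nephron and the stroma, and not in the ureteric epithelium or the endothelium. The third group, *Enl*-T1 TDI-11055, had the mutant genotype, and the pregnant mothers had been given 100 mg/kg of TDI-11055, an inhibitor of the ENL acyl-binding pocket, by mouth once daily from E10.5 to E14.5. The treated library is called the inhibitor library below, and there was no *Enl*-WT library with the inhibitor. Embryos were pooled in the untreated libraries, with no map from cells to embryos.

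Cadherins are transmembrane proteins that hold cells to neighbours, mostly through the same cadherin on the next cell, with catenins linking their tails to actin. In the kidney, loose mesenchyme is induced by the ureteric bud to become epithelium, and the cadherins on the cells change along the way. E-cadherin (*Cdh1*), P-cadherin (*Cdh3*) and kidney-specific cadherin (*Cdh16*) mark epithelia, N-cadherin (*Cdh2*), R-cadherin (*Cdh4*) and K-cadherin (*Cdh6*) are known from the forming nephron, OB-cadherin (*Cdh11*) from mesenchyme and VE-cadherin (*Cdh5*) from endothelium.

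On mouse build GRCm38, 5 of the 8 genes lie on chromosome 8. In order these are *Cdh11* (ENSMUSG00000031673, chr8:102632095-102785642, minus strand), *Cdh5* (ENSMUSG00000031871, chr8:104101625-104144511, plus), *Cdh16* (ENSMUSG00000031881, chr8:104601911-104624396, minus), *Cdh3* (ENSMUSG00000061048, chr8:106510891-106557297, plus) and *Cdh1* (ENSMUSG00000000303, chr8:106603351-106670246, plus). *Cdh3* and *Cdh1* are separated by 46053 bases. *Cdh4* (ENSMUSG00000000305) lies at chr2:179442431-179899373 on the plus strand, *Cdh2* (ENSMUSG00000024304) at chr18:16588877-16809246 on the minus strand and *Cdh6* (ENSMUSG00000039385) at chr15:13028701-13173675 on the minus strand. Summed exons run from 3792 bases for *Cdh16* to 9024 bases for *Cdh6*.

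Cells with 1000 to 6000 detected genes and at most 10% mitochondrial UMIs (unique molecular identifiers, 1 per captured transcript) were kept, which left 5233 *Enl*-WT, 4144 *Enl*-T1 and 2754 inhibitor-library cells with medians of 5090, 9391 and 16932 UMIs. Any pair of libraries shared 5 to 8 barcodes. Cells with female transcripts made up 26.5%, 73.3% and 35.1% of the kept cells. That was 1386, 3036 and 968 female cells beside 2431, 683 and 976 male cells, and the rest had transcripts of both sexes or of neither. Sex, depth and group therefore cannot be told apart. Values within a sex, where given, hold sex fixed but not depth. Cells were clustered without any cadherin. Classes with the suffix "-like" were named from markers of each cell type. Levels are summed UMIs of the gene in a class as counts per 1e6 UMIs of that class (CPM) and are compared within a gene only. All intervals are 95% intervals for counting error alone, since PCR, embryos and libraries add error that they do not cover. The median gene of a lineage was itself 0.30 to 0.41 lower in *Enl*-T1 relative to *Enl*-WT on the log2 scale, and lower still among genes with long transcripts, so the *Enl*-T1 fold of each member in its own lineage is read beside the median of genes of like length (within a fixed fold of the member's exon length).

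The marker check held for the 4 lineages. Of the narrower classes, the podocyte-like and proximal tubule-like cells of *Enl*-T1 went against their names. Summed podocyte markers reached 11340 CPM in *Enl*-WT podocyte-like cells but 405 CPM in the 39 *Enl*-T1 cells, where 4 of 10 markers were detected in at least 10% of cells, and summed markers of committed progenitors were 296 CPM and 1880 CPM. Summed proximal tubule markers were 6357 CPM in *Enl*-WT and 524 CPM in the 32 *Enl*-T1 cells. The inhibitor-library values were 3381 and 986 CPM. Folds in those 2 classes therefore compare cells that shared a cluster and not a matched stage. NP1-like cells were named from markers of self-renewing progenitors. In *Enl*-T1 their summed NP1 markers were lower and their summed committed-progenitor markers higher than in *Enl*-WT, as given with *Cdh6* below. A matched stage is not established there either.

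In *Enl*-WT kidneys the cadherins had different but partly shared territories. *Cdh1* was highest in urothelium-like cells at 474 CPM (428 to 524), then in trunk/collecting duct-like cells at 346 (324 to 368), distal tubule/loop of Henle-like cells at 187 (173 to 202), ureteric tip-like cells at 155 (144 to 166), proximal tubule-like cells at 93.3 (79.7 to 109) and intermediate-like cells at 45.5 (35.5 to 57.4), and every neighbour in that order had separate intervals. Below these, 8 classes lay at or under 9.16 CPM and could not be ordered. *Cdh16* followed the same epithelia in another order, with 724 CPM (692 to 756) in trunk/collecting duct-like cells and 472 (426 to 522) in urothelium-like cells, then 225 (204 to 248) in proximal tubule-like and 212 (200 to 226) in tip-like cells, whose levels did not differ beyond their intervals. *Cdh3* was spread evenly over tip-like cells (103 CPM), distal tubule/loop-like cells (90.1) and trunk/collecting duct-like cells (83.1), and was much lower in urothelium-like cells at 20.9 CPM (12.2 to 33.5), where *Cdh1* was highest.

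The nephron cadherins split by stage. Intermediate-like cells carry renal vesicle and S-shaped body markers, but their leading genes held 3 markers of that stage and 3 of committed progenitors. *Cdh2* was highest in NP1-like cells at 170 CPM (158 to 183). It stood at 87.2 (73.1 to 103) in intermediate-like cells and at 21.9 (15.4 to 30.4) in podocyte-like cells. *Cdh6* had the opposite course, from 28.4 CPM (23.6 to 34.0) in NP1-like cells to 415 (383 to 448) in intermediate-like and 671 (634 to 710) in proximal tubule-like cells. *Cdh4* was 82.7 CPM (74.2 to 91.9) in NP1-like, 151 (133 to 172) in intermediate-like and 570 (534 to 607) in podocyte-like cells. *Cdh11* reached 503 CPM (482 to 525) in NP1-like cells, as high as in Foxd1 stroma-like cells at 523 (482 to 566), and fell among the differentiated nephron classes to 13.4 and 14.3 CPM in the tubules but 191 (171 to 214) in podocyte-like cells. *Cdh5* was 808 CPM (776 to 842) in the endothelium and at most 10.4 CPM in any other named class.

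**Figure D1:**
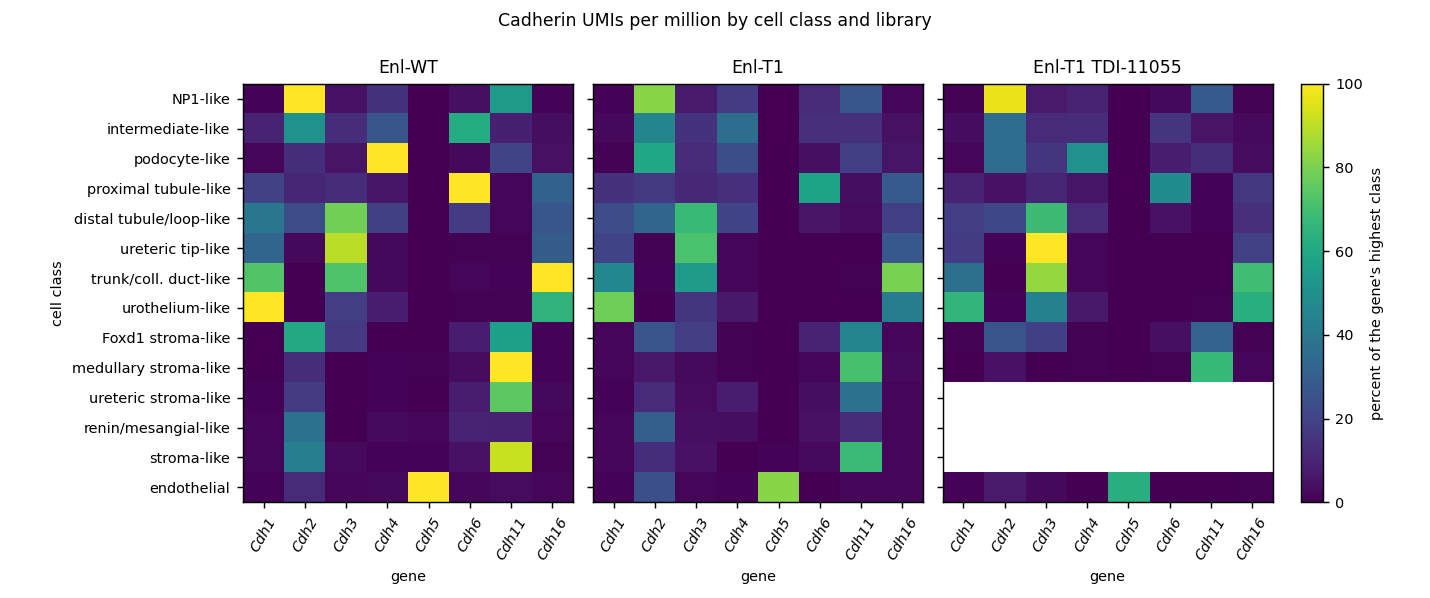
Level of each cadherin (columns) in each cell class (rows) in the 3 libraries, as a percent of that gene's highest value over all classes and libraries, with white where a class held fewer than 30 cells. In *Enl*-WT the bright fields are urothelium for *Cdh1* (474 CPM), trunk and collecting duct for *Cdh16* (724 CPM), podocytes for *Cdh4* (570 CPM), proximal tubule for *Cdh6* (671 CPM) and endothelium for *Cdh5* (808 CPM).

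The territories also showed cell by cell. After each cell was thinned to 2000 UMIs to level the depth, *Cdh5* was found in 71.2%, 68.5% and 63.8% of endothelial cells of *Enl*-WT, *Enl*-T1 and the inhibitor library, and in 0.459%, 0.465% and 0.15% of nephron cells, which should lack it. *Cdh1* and *Cdh16* met in the same cells. Of thinned *Enl*-WT trunk/collecting duct-like cells, 135 of 406 held both (33.2%, 28.7 to 38.1), against 58 of 267 in *Enl*-T1 (21.7%) and 39 of 253 in the inhibitor library (15.4%). Without thinning the order turned round, at 68.8%, 83.9% and 90.6%, so the order of the libraries depended on the thinning. In NP1-like cells *Cdh2* and *Cdh11* met in 17.8% (15.1 to 20.8) of cells in the *Enl*-WT library, against 9.12% (6.96 to 11.7) in *Enl*-T1 and 10.7% (8.33 to 13.4) in the inhibitor library. *Cdh4* and *Cdh11* met in 18.5% (13.5 to 24.4) of *Enl*-WT podocyte-like cells, *Cdh4* and *Cdh6* in 11.2% (7.21 to 16.3) of intermediate-like cells, and *Cdh6* and *Cdh16* in 17.0% (12.8 to 22.0) of proximal tubule-like cells. Removing the barcodes with the highest doublet scores moved the first of these pairs from 33.2% to 33.7%.

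The comparison of *Enl*-T1 with *Enl*-WT asked how mutant ENL altered the kidney lineages, and it begins here with the epithelial cadherins. In the ureteric epithelium *Cdh1* was 268 CPM (259 to 278) in *Enl*-WT, 226 (219 to 234) in *Enl*-T1 and then 126 (121 to 131) in the inhibitor library. The *Enl*-T1 level was 0.843 times (0.802 to 0.885) that of *Enl*-WT, or -0.25 on the log2 scale against -0.32 for genes of like length, and it turned to 0.05 under median-of-ratios scaling. That modest fold joined larger ones. *Cdh1* in *Enl*-T1 was 0.619 times (0.550 to 0.697) the *Enl*-WT level in tip-like cells, 0.640 times (0.580 to 0.705) in trunk/collecting duct-like cells and 0.778 times (0.694 to 0.873) in urothelium-like cells. The median gene of those 3 classes itself had log2 folds of -0.29, -0.29 and -0.32, and that of the 2 urothelium-like clusters -0.31 and -0.34. For *Cdh1*, all 8 clusters in those 3 classes were lower, at 0.551 to 0.789 times the *Enl*-WT level. The 2 urothelium-like clusters were at 0.768 and 0.789. The mix moved the other way. Urothelium-like cells, the class with most *Cdh1*, numbered 255 of 1172 ureteric epithelial cells in *Enl*-T1 and 140 of 1743 in *Enl*-WT. With the clusters held to their *Enl*-WT shares the fold was 0.637.

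With the inhibitor *Cdh1* did not return toward *Enl*-WT. The inhibitor library had 0.557 times (0.529 to 0.587) the *Enl*-T1 level in the ureteric epithelium, or 0.769 times with the clusters held to *Enl*-WT shares, and 0.853 times (0.760 to 0.958), 0.795 times (0.717 to 0.880) and 0.845 times (0.747 to 0.953) in tip-, trunk/collecting duct- and urothelium-like cells. *Cdh1* was thus lowest in the inhibitor library in all 3 classes, at 81.7, 176 and 312 CPM, and in 7 of their 8 clusters, the exception being a tip-like cluster at 1.06 times the *Enl*-T1 level. The median gene of the 3 classes had log2 folds of -0.02, 0.04 and 0.11 over *Enl*-T1.

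*Cdh3* gave the opposite picture. It was 85.9 CPM (80.5 to 91.5) in *Enl*-WT ureteric epithelium, 55.2 (51.6 to 59.1) in *Enl*-T1 and 107 (102 to 112) in the inhibitor library, or 0.643 times (0.586 to 0.706) *Enl*-WT and then 1.93 times (1.78 to 2.10) *Enl*-T1. The same order held in tip-like cells (103, 81.8 and 114 CPM) and in trunk/collecting duct-like cells (83.1, 63.1 and 96.4 CPM). All 8 clusters of these classes and the urothelium were lower in *Enl*-T1 and higher again with the inhibitor. The median gene of tip-, trunk/collecting duct- and urothelium-like cells was itself lower in *Enl*-T1, at log2 folds of -0.29, -0.29 and -0.32. The lower direction within these classes was therefore not particular to *Cdh3*. With the inhibitor that median had log2 folds of -0.02, 0.04 and 0.11 over *Enl*-T1. In urothelium-like cells the inhibitor library had 2.90 times (1.98 to 4.24) the *Enl*-T1 level, 50.2 against 17.3 CPM, while the summed urothelium markers stood at 1320 against 4396 CPM; their part in this value was not tested. Held to *Enl*-WT cluster shares the folds were 0.781 and 1.56. Both moved with sex. The log2 fold of -0.64 in *Enl*-T1 was -0.88 among female and -0.12 among male cells, and that of 0.95 with the inhibitor was 1.07 among female and 0.56 among male cells, where it no longer passed 1.5-fold. Genes of like length had -0.31 and 0.07.

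*Cdh16* was 435 CPM (423 to 447), 393 (383 to 403) and 278 (270 to 285) in the ureteric epithelium of the 3 libraries. The fold of 0.904 (0.871 to 0.939) in *Enl*-T1, beside a log2 median of -0.25 for genes of like length, turned with the processing. The upper gene limit removed 17 *Enl*-WT, 254 *Enl*-T1 and 352 inhibitor-library barcodes that belonged to the ureteric epithelium, and without it the log2 fold was 0.25 in place of -0.15, while median-of-ratios scaling gave 0.16 and the stricter limits on genes and mitochondrial share 0.18. The step to the inhibitor library, 0.706 times (0.680 to 0.732), or -0.50 on the log2 scale against 0.10 for genes of like length, was -0.49 without the limit but -0.10 under the stricter limits. In trunk/collecting duct-like cells *Cdh16* went from 724 CPM in *Enl*-WT to 577 in *Enl*-T1 and 502 in the inhibitor library. Urothelium-like cells differed, at 472 (426 to 522), 305 (288 to 323) and 460 (421 to 503) CPM, so there the inhibitor library was 1.51 times (1.35 to 1.68) *Enl*-T1, in both urothelium-like clusters.

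**Figure D2:**
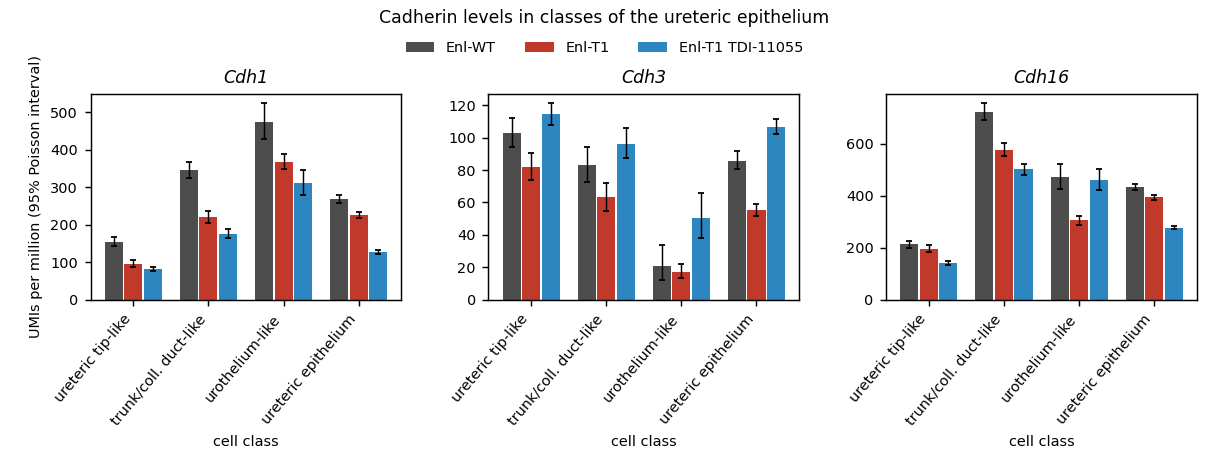
Level of the 3 epithelial cadherins in CPM (bars from 0, with 95% Poisson intervals) in ureteric tip-, trunk/collecting duct- and urothelium-like cells and in the whole ureteric epithelium, by library. *Cdh1* steps down from *Enl*-WT to *Enl*-T1 to the inhibitor library in each class, while *Cdh3* is lowest in *Enl*-T1 in each class.

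Across all genes tested in the ureteric epithelium, 5.73% were at least 1.5-fold higher and 26.9% at least 1.5-fold lower in *Enl*-T1 relative to *Enl*-WT, and 7.72% and 9.79% were that much higher and lower in the inhibitor library than in *Enl*-T1. Of the 5 cadherins with enough counts (at least 5 CPM on average), none was higher and 2 were lower in *Enl*-T1, which were *Cdh3* and *Cdh11*. With the inhibitor *Cdh3* was higher, and 3 were lower, which were *Cdh1*, *Cdh4* and *Cdh11*. *Cdh11* there was only 17.3, 8.35 and 3.58 CPM. After thinning, 43, 20 and 9 ureteric epithelial cells of the 3 libraries held a *Cdh11* UMI. Without the highest doublet scores 24, 11 and 7 such cells were left.

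Nephron cells carried the same epithelial cadherins, and the folds in *Enl*-T1 were smaller with the makeup of the lineage held fixed. *Cdh1* was 83.0 CPM (78.2 to 87.9) in the *Enl*-WT nephron, 18.7 (16.5 to 21.1) in *Enl*-T1 and 24.5 (22.3 to 26.8) in the inhibitor library, a fold of 0.225 in *Enl*-T1 that became 0.571 with the clusters held to *Enl*-WT shares. For *Cdh16*, at 112, 34.8 and 34.0 CPM, a fold of 0.310 became 0.758, and for *Cdh3*, at 29.7, 15.1 and 21.8 CPM, a fold of 0.508 became 0.976. Distal tubule/loop-like cells, which had more *Cdh1* than the other named nephron classes, numbered 533 of 2216, 94 of 1298 and 211 of 1341 nephron cells. Within them *Cdh1* was 187 (173 to 202), 112 (94.1 to 133) and 86.4 CPM (75.8 to 98.2), and *Cdh3* was 90.1, 77.6 and 78.4 CPM with overlapping intervals. A small unnamed cluster led by *S100g*, *Calb1* and *Aqp3*, genes of the distal nephron and collecting duct, held 67, 17 and 30 cells and had most *Cdh1* (483, 208 and 232 CPM) and most *Cdh16* (688, 516 and 332 CPM) of any nephron cluster named here.

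Over the whole nephron 38.3% of all genes were at least 1.5-fold lower in *Enl*-T1 and 5.6% higher. Of 7 cadherins with enough counts 4 were lower (*Cdh1*, *Cdh3*, *Cdh6* and *Cdh16*) and none was higher. In the inhibitor library against *Enl*-T1, 7.36% of genes were higher, with none of the cadherins among them, and 7.39% were lower, with *Cdh4* and *Cdh6* among them.

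*Cdh6* is the cadherin of the renal vesicle and early proximal tubule. Its direction turned between NP1-like and intermediate-like cells, both classes in which it is read from many counts. Of the 8 genes it was the 1 matched in the promoter table from RefSeq (GRCm38.p6), and its promoter is shown for that reason. The 250 bases before the start of *Cdh6*, chr15:13173676-13173925, read 5′ to 3′ on the minus strand, are given below, with matches to the motifs in capitals.

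Cdh6: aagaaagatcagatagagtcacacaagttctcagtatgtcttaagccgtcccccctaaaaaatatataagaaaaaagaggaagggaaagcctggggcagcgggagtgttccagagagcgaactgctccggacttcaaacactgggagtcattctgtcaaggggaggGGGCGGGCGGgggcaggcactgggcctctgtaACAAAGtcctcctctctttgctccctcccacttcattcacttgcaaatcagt

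On both strands, 5 motifs were sought. The GC box (GGGCGG) was found 2 times, 84 to 79 and 80 to 75 bases before the start, and the core of the HMG-box factors (ACAAAG) lay 52 to 47 bases before it. The Snail E-box (CAGGTG), the homeodomain core (TAATTA) and the TATA box (TATAAA) were not in this window. The 2 GC boxes overlapped by 2 bases, and neither overlapped ACAAAG. Of 32851 promoter windows of the same length, 32.7% held GGGCGG, 16.5% ACAAAG, 17.2% CAGGTG, 4.84% TAATTA and 12.4% TATAAA, so both motifs are common letters. The window was 51.2% G and C.

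In the *Enl*-T1 nephron as a whole *Cdh6* was lower, at 101 CPM (95.5 to 106) against 183 (176 to 190) in *Enl*-WT, a fold of 0.551 (0.516 to 0.588), and it was lower again in the inhibitor library at 43.2 CPM (40.3 to 46.3), 0.429 times (0.394 to 0.468) *Enl*-T1. The log2 fold of -0.86 in *Enl*-T1 compares with -0.65 for genes of like length. Holding clusters to *Enl*-WT shares gave folds of 0.582 and 0.568. Where *Cdh6* is normally strong it was weaker. Intermediate-like cells had 415 CPM in *Enl*-WT, 92.9 (73.5 to 116) in *Enl*-T1 and then 101 (87.3 to 117) in the inhibitor library, so the fold was 0.224 (0.175 to 0.284) with the summed intermediate markers at 1282, 840 and 791 CPM. The class held 207, 62 and 195 cells, with *Cdh1* at 45.5, 10.7 and 15.1 CPM, and a matched stage is not established. Proximal tubule-like cells had 671, 389 and 323 CPM and distal tubule/loop-like cells 116, 35.8 and 32.8 CPM.

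NP1-like cells went the other way. *Cdh6* was 28.4 CPM in *Enl*-WT, 83.8 (77.5 to 90.5) in *Enl*-T1 and then 14.6 (12.3 to 17.1) in the inhibitor library, which is 2.95 times (2.42 to 3.61) *Enl*-WT and then 0.174 times (0.145 to 0.208) *Enl*-T1. The class was made of 4 clusters, 1 led by the progenitor genes *Rspo3*, *Cited1* and *Crym* and 3 led by cell cycle genes. The leading genes of those 3 held no NP1 marker. In the cluster led by *Rspo3*, *Cdh6* was 13.4 CPM (8.29 to 20.5), 37.1 (28.9 to 47.0) and 6.19 (4.003 to 9.13) in the 3 libraries. In the cluster led by S-phase genes such as *Rrm2* and *Ccne2* the values were 41.7, 107 and 25.6 CPM, in the mitotic cluster led by *Ube2c* they were 37.5, 92.7 and 12.01 CPM, and in the last, led by *Ccnb2*, they were 16.3, 79.0 and 16.9 CPM, the first from 4 UMIs. All 4 clusters were 2.47 to 4.85 times higher in *Enl*-T1 relative to *Enl*-WT, and all 4 were 0.13 to 0.239 times *Enl*-T1 with the inhibitor. After thinning, 4.97% (3.51 to 6.82), 14.01% (11.4 to 17.0) and 1.67% (0.803 to 3.05) of NP1-like cells had a *Cdh6* UMI. In ureteric epithelial cells, which should lack it, the shares were 0.991%, 0.514% and 0.297%. Median depths before thinning were 5163, 12016 and 19084 UMIs in NP1-like cells and 5227, 11702 and 19318 UMIs in the ureteric epithelium. Summed NP1 markers moved in the opposite direction, at 1733, 722 and 1349 CPM, and summed markers of committed progenitors were 464, 616 and 474 CPM. Their part in the *Cdh6* values was not tested.

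Unnamed nephron clusters divided likewise. A cluster led by *Saa1* and *Bmper* had 49.4 CPM (32.0 to 73.0) of *Cdh6* in *Enl*-WT, 132 (115 to 152) in *Enl*-T1 and 36.4 (27.9 to 46.7) with the inhibitor. A cluster led by *Sst*, *Akap12* and *Sulf1*, which held 42 *Enl*-WT, 210 *Enl*-T1 and 13 inhibitor-library cells, had 420 (346 to 506), 164 (146 to 184) and 84.2 CPM (49.0 to 135).

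The other cadherins of NP1-like cells moved differently. *Cdh11*, the mesenchymal cadherin that these cells share with stroma, was 503 CPM (482 to 525) in *Enl*-WT, 250 (239 to 261) in *Enl*-T1 and then 263 (253 to 273) in the inhibitor library, a fold of 0.496 (0.467 to 0.528) that the inhibitor library kept. All 4 NP1-like clusters had the lower level, 0.469 to 0.582 times *Enl*-WT, and the share of thinned cells with a UMI was 61.6%, 36.0% and 34.9%. *Cdh2* differed less, at 170, 139 (131 to 148) and 164 (157 to 172) CPM, or 0.821 times (0.746 to 0.903) and then 1.18 times (1.09 to 1.27). *Cdh4* was 82.7, 102 (94.7 to 109) and 54.1 (49.7 to 58.8) CPM, with 2 clusters higher and 2 lower in *Enl*-T1 and all 4 lower with the inhibitor. In NP1-like cells 6.17% of all genes were at least 1.5-fold higher and 31.6% lower in *Enl*-T1, where of 6 cadherins *Cdh6* was higher and *Cdh11* lower. With the inhibitor 6.41% were higher, none of them a cadherin with enough counts, and 8.34% were lower, among them *Cdh4*, *Cdh6* and *Cdh16*.

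**Figure D3:**
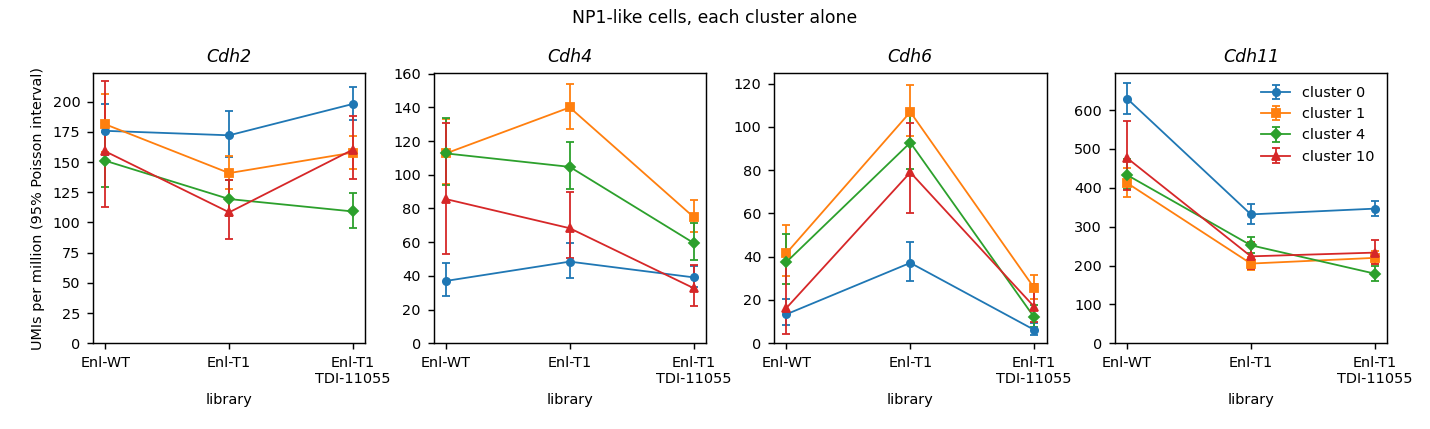
Level of *Cdh2*, *Cdh4*, *Cdh6* and *Cdh11* (CPM, with 95% Poisson intervals) in each of the 4 NP1-like clusters in the 3 libraries, the lines joining 1 cluster. *Cdh6* peaks in *Enl*-T1 in every cluster (37.1 to 107 CPM) and *Cdh11* is highest in *Enl*-WT in every cluster (413 to 630 CPM).

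*Cdh2* in the nephron as a whole was 84.9 CPM (80.2 to 89.9), 123 (117 to 128) and 118 (114 to 123), which is 1.44 times (1.34 to 1.56) *Enl*-WT in *Enl*-T1, with a log2 fold of 0.53 against -0.63 for genes of like length. NP1-like cells, the class with most *Cdh2*, numbered 731 of 2216 nephron cells in *Enl*-WT and 616 of 1298 in *Enl*-T1, and at *Enl*-WT cluster shares the fold was 1.09. In podocyte-like cells *Cdh2* was 21.9 CPM in *Enl*-WT, 101 (67.8 to 145) in *Enl*-T1 and then 61.6 (41.0 to 89.1) in the inhibitor library, in cells whose podocyte markers were lower by the amounts given above.

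*Cdh4* in the nephron was 147 CPM (141 to 153), 105 (99.6 to 110) and 62.5 (59.0 to 66.2), or 0.714 times (0.667 to 0.763) and then 0.596 times (0.552 to 0.644). With the clusters held to *Enl*-WT shares the folds were 0.738 and 0.722, and the second no longer passed 1.5-fold. The log2 folds of -0.49 and -0.75 stood beside -0.60 and -0.14 for genes of like length. Its strongest class in *Enl*-WT held 218, 39 and 30 podocyte-like cells. Those cells had 570, 136 (96.7 to 186) and 290 (243 to 344) CPM. Their summed podocyte markers of 11340, 405 and 3381 CPM had the same order but not the same folds, and their part in the *Cdh4* values was not tested. In intermediate-like cells *Cdh4* was higher in *Enl*-T1, at 206 CPM (176 to 239) against 151, and 71.6 (59.98 to 84.9) with the inhibitor. *Cdh11* behaved the same way there, at 82.1 (68.5 to 97.6), 130 (107 to 157) and 49.0 (39.5 to 60.2) CPM.

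**Figure D4:**
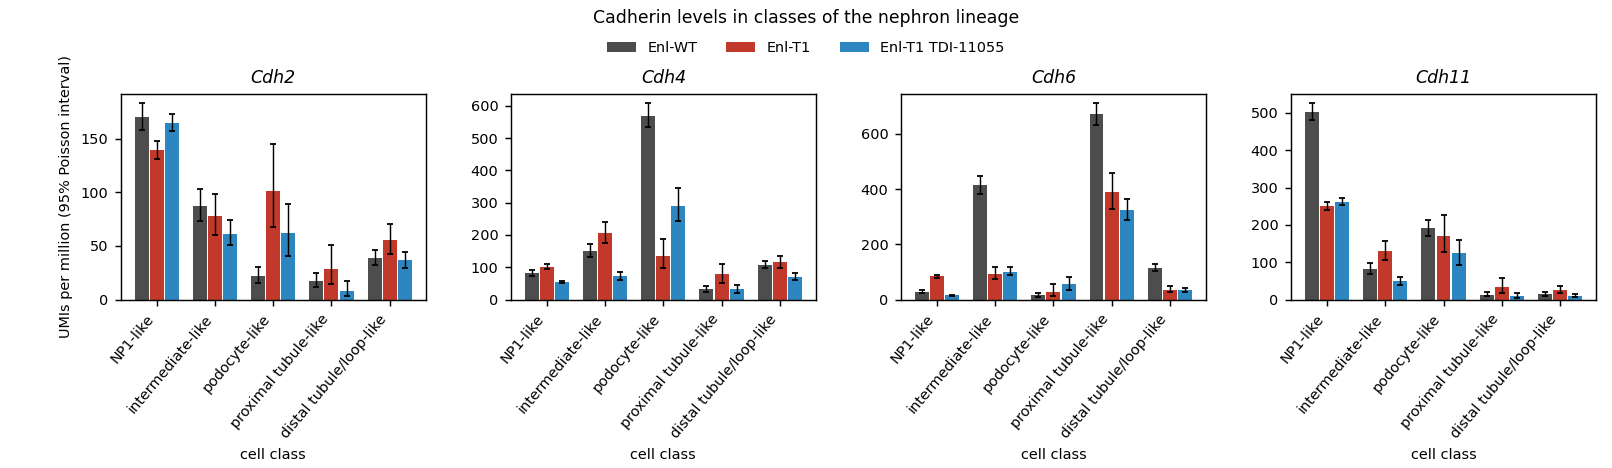
Level of *Cdh2*, *Cdh4*, *Cdh6* and *Cdh11* in CPM (bars from 0, with 95% Poisson intervals) in 5 classes of the nephron, by library. *Cdh6* in *Enl*-T1 is above *Enl*-WT in NP1-like cells (83.8 against 28.4 CPM) and below it in intermediate-like cells (92.9 against 415 CPM).

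In the stroma the results turned on *Cdh11*, whose protein joins mesenchymal cells, and on *Cdh2*. *Cdh11* was 531 CPM (509 to 554) in *Enl*-WT, 460 (447 to 472) in *Enl*-T1 and then 307 (289 to 326) in the inhibitor library, or 0.865 times (0.823 to 0.91) and then 0.669 times (0.625 to 0.714). The log2 fold of -0.21 in *Enl*-T1 lay above the -0.54 of genes of like length and became 0.10 under median-of-ratios scaling. Medullary stroma-like cells had most of it, at 928 (846 to 1017), 658 (626 to 692) and 624 (545 to 711) CPM, and ureteric stroma-like cells had 694, 352 and 390 CPM, the last from 10 cells. Renin/mesangial-like cells had little, at 86.8 (68.3 to 109), 120 (94.4 to 150) and 40.2 (20.8 to 70.2) CPM. *Cdh2* in the stroma was 69.0 CPM (61.2 to 77.6), 28.7 (25.6 to 32.0) and 36.4 (30.4 to 43.3), and in Foxd1 stroma-like cells 103 (85.0 to 123), 44.1 (35.9 to 53.5) and 44.3 (34.5 to 56.1), so *Cdh2* was 0.429 times (0.326 to 0.565) the *Enl*-WT level there. *Cdh6* in Foxd1 stroma-like cells was 53.9 (41.4 to 69.1), 65.4 (55.4 to 76.8) and 27.0 (19.4 to 36.5) CPM. The 1 member higher in the stroma of *Enl*-T1 was *Cdh4*, at 7.10, 13.1 and 4.02 CPM, most of it in ureteric stroma-like cells, with 5.0 CPM (1 UMI) in 49 *Enl*-WT cells and 45.2 CPM (36.1 to 55.8) in 255 *Enl*-T1 cells.

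Of all genes tested in the stroma, 7.0% were at least 1.5-fold higher and 29.2% lower in *Enl*-T1 relative to *Enl*-WT, against *Cdh4* higher and *Cdh2* lower among 7 cadherins. With the inhibitor 10.8% were higher than in *Enl*-T1, none of the cadherins among them, and 12.5% lower, among them *Cdh1*, *Cdh4*, *Cdh6* and *Cdh16*, of which *Cdh1* and *Cdh16* had at most 14.9 CPM in any library.

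*Cdh5*, the adhesion molecule of vessel walls, had at most 5.88 CPM in the nephron, ureteric epithelium and stroma of any library. In the endothelium it was 808 CPM (776 to 842), 666 (638 to 694) and 507 (475 to 541), or 0.824 times (0.776 to 0.874) in *Enl*-T1 and then 0.762 times (0.704 to 0.824) with the inhibitor. Its log2 fold of -0.28 in *Enl*-T1 stood beside -0.31 for genes of like length and was 0.03 under median-of-ratios scaling. The endothelial markers themselves summed to 4526, 3856 and 3837 CPM. *Cdh2* in endothelial cells was 21.1 (16.1 to 27.1), 41.3 (34.5 to 49.0) and 12.3 (7.71 to 18.6) CPM.

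Of all genes tested in the endothelium, 5.86% were at least 1.5-fold higher and 29.0% lower in *Enl*-T1, and of 5 cadherins *Cdh2* was higher and *Cdh4* and *Cdh11* were lower. With the inhibitor 9.34% of genes were higher than in *Enl*-T1, with no cadherin among them, and 18.7% were lower, among them *Cdh2*, *Cdh4*, *Cdh11* and *Cdh16*. *Cdh4* had at most 11.8 CPM and *Cdh16* at most 10.4 CPM in these cells, and *Cdh11* had 28.3, 17.2 and 1.12 CPM. After thinning, 10 *Enl*-WT and 6 *Enl*-T1 endothelial cells held a *Cdh11* UMI. Without the highest doublet scores 1 such cell was left in each of these 2 libraries.

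**Figure D5:**
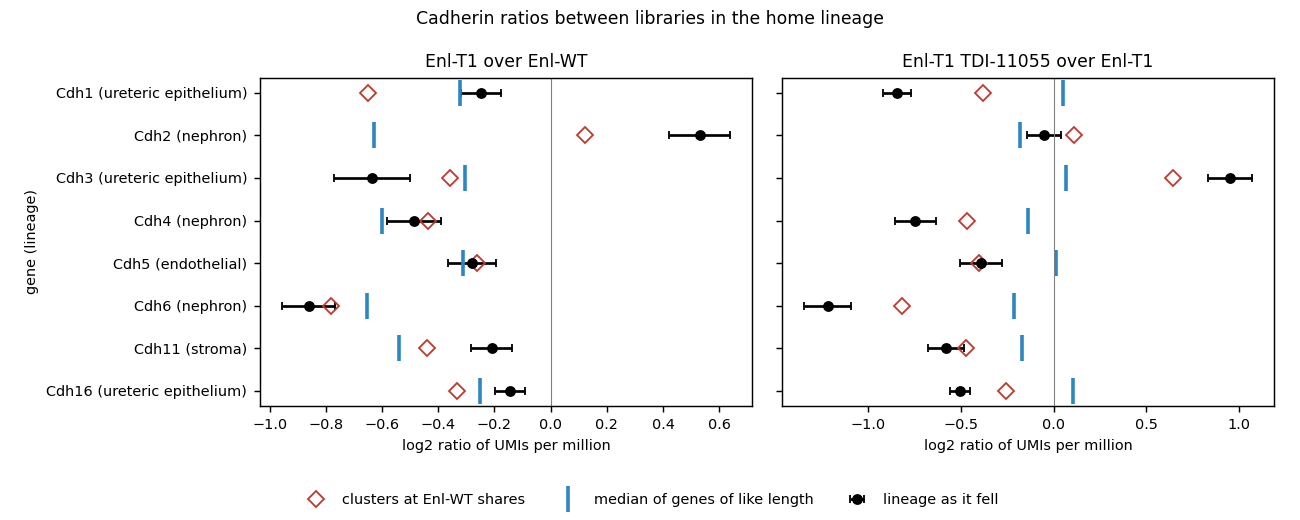
Log2 ratio of each cadherin between libraries in the lineage where it is known best (points, with 95% intervals for counting error), the same with clusters held to their *Enl*-WT shares (diamonds), and the median of genes of like length (ticks). *Cdh2* in *Enl*-T1 over *Enl*-WT (0.53) and *Cdh3* in the inhibitor library over *Enl*-T1 (0.95) stand furthest to the right.

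Read over whole libraries, the cadherins mix level with lineage. *Cdh11* was 168 CPM in *Enl*-WT, 187 in *Enl*-T1 and then 104 in the inhibitor library, and stroma made up 16.6%, 33.8% and 9.80% of the cells. With the 4 lineages held to their *Enl*-WT shares the values were 143 CPM in *Enl*-T1 and 112 in the inhibitor library, so the higher whole-kidney value in *Enl*-T1 became a lower one. *Cdh5* in the inhibitor library was 21.2 CPM as found and 38.3 at *Enl*-WT shares. The other 7 members kept their direction between *Enl*-WT and *Enl*-T1 under this change. With 23 named classes and clusters held instead, *Cdh2*, at 50.1 CPM in *Enl*-WT and 51.2 in *Enl*-T1 as found, turned to 47.5 CPM in *Enl*-T1.

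The partners of the cadherins were read from a list of adaptors, nectins, repressors and epithelial factors. In the nephron 7 of 8 catenins and adaptors with enough counts were at least 1.5-fold lower in *Enl*-T1 and none was higher, with a median log2 fold of -0.90 against -0.41 for all genes, of which 38.3% were that much lower. The makeup of the lineage moved with these values, as summed proximal tubule markers were 945 CPM in *Enl*-WT and 29.8 in *Enl*-T1 and summed distal tubule/loop markers 808 and 123 CPM. Its part in the partners' folds was not tested. *Ctnnb1*, encoding β-catenin, was 394 CPM in *Enl*-WT and 221 in *Enl*-T1, and *Tjp1*, encoding the junction protein ZO-1, 139 and 44.1 CPM. With the inhibitor 1 of the 8 was lower, *Vcl* at 30.1 CPM against 48.1. All 3 nectins with enough counts were lower in *Enl*-T1, and with the inhibitor 1 was higher and 1 lower. *Nectin2* was 71.8, 32.6 and 53.7 CPM, *Nectin1* 12.2, 5.86 and 3.63 CPM, and *Nectin3* 88.0, 43.9 and 44.2 CPM. Among the factors of epithelial genes, *Grhl2*, encoding an activator of junction genes, was 17.3, 3.63 and 5.53 CPM, or 0.210 times (0.152 to 0.284) *Enl*-WT and then 1.52 times (1.08 to 2.17) *Enl*-T1. All 3 genes of cadherin processing were lower in *Enl*-T1, beside the same 38.3% of all genes. Of the 3 repressors with enough counts, *Snai2*, encoding the E-cadherin repressor Slug, was 6.80, 34.9 and 10.2 CPM, or 5.13 times (4.11 to 6.46) higher in *Enl*-T1, *Zeb1* was lower in *Enl*-T1, and *Zeb2* was 80.3, 64.5 and 25.3 CPM.

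In the ureteric epithelium 3 of 9 catenins and adaptors were lower in *Enl*-T1, which were *Ctnnd2*, *Afdn* and *Tjp1*, near the 26.9% of all genes, and 3 were lower with the inhibitor, which were *Ctnnd1*, *Jup* and *Vcl*, beside 9.79% of all genes. *Jup*, encoding plakoglobin, was 109, 152 and 81.2 CPM. Among the epithelial factors, *Ovol2*, a repressor of mesenchymal genes, was lower in *Enl*-T1 and higher with the inhibitor, at 19.8, 10.1 and 27.9 CPM. *Twist1*, encoding another repressor, had 14.48, 4.08 and 10.4 CPM. It was the 1 lower in *Enl*-T1 of 2 repressors with enough counts there, and with the inhibitor 1 of the 2 was higher and 1 lower. In the stroma *Snai2* was 142, 246 and 148 CPM. It was the 1 higher in *Enl*-T1 of 6 repressors with enough counts there, while 2 were lower, and their median log2 fold was -0.03. Of 8 catenins and adaptors in the stroma 4 were lower in *Enl*-T1, beside 29.2% of all genes. In the endothelium 1 of 8 was lower, *Tjp1* at 506 and 328 CPM, beside 29.0% of all genes.

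Likeness in pattern was described over 62 sums of a class in a library, among 10973 genes, as Pearson's r of log2(CPM + 10). These sums share libraries, cells and depth, and r is a description. *Cdh1* was most like *Spint1* (0.97), *Prss8* (0.97) and *Ocln* (0.97), and *Cdh16* most like *Prss8* (0.97), *Ocln* (0.96) and *Tfcp2l1* (0.96). *Cdh3* was most like *Tfap2a* (0.90), *Tfap2b* (0.87) and *Epcam* (0.87), *Cdh5* most like *Myct1* (0.98), *Gimap4* (0.97) and *Tek* (0.97), and *Cdh11* most like *Clmp* (0.96), *Meis1* (0.96) and *Lsp1* (0.94). The nephron members had weaker matches. They were *Fxyd6* (0.82), *Hoxc9* (0.81) and *Foxc1* (0.80) for *Cdh2*, *Proser2* (0.86), *Uncx* (0.79) and *Gm266* (0.78) for *Cdh4*, and *Osr2* (0.74), *Gxylt2* (0.73) and *Sall1* (0.72) for *Cdh6*. Between members r was highest for *Cdh1* with *Cdh16* (0.95), and *Cdh1* with *Cdh11* had -0.76.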

How the data were processed

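Raw counts of UMIs per gene and cell barcode were deposited by the authors, who had made them from 10x Genomics 3′ libraries with Cell Ranger 6.1.2 on mm10. The matrices hold 7186, 6575 and 6453 barcodes (*Enl*-WT, *Enl*-T1, *Enl*-T1 TDI-11055) with 37221435, 63336586 and 76619303 UMIs. Barcodes with 1000 to 6000 genes and at most 10% mitochondrial counts were kept, and doublets were left in. Scrublet (scanpy 1.11.5) marked 136, 0 and 0 barcodes and so had not worked in 2 libraries. As an alternative the 413, 346 and 333 barcodes with the highest scores were removed.

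Anchor integration of the libraries (Seurat 5.3.0, R 4.3.3) used 2000 variable genes and left out 23 cadherins and 128 genes that were sex-linked or encoded haemoglobin, ribosomal proteins or mitochondrial transcripts. All cells were clustered on 30 components (resolution 0.5) and each lineage again on 20 (0.8). Clusters were named from marker lists without cadherins, by a rule set after the clusters were seen. Clusters led by another lineage's genes stayed unnamed, and no cluster took the name of committed progenitors. The files held no annotation, so rebuilt names are a possible source of any difference from the study.

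UMIs were summed per class and library (Python 3.11.15, numpy 2.4.6, scipy 1.17.1, pandas 2.3.3). Intervals are exact Poisson for CPM, exact Clopper-Pearson for shares and exact from the split of counts for folds. Shares were taken after thinning cells to 2000 UMIs, leaving out shallower ones. A gene was called at a 1.5-fold ratio and at least 5 CPM on average. Clusters held to *Enl*-WT shares were weighted by their cells in *Enl*-WT. Exon lengths come from GENCODE M21. Ratios were tested on simulated counts. Named genes were the 8 members, a fixed list of partners and the 3 genes most like each member. The members, the lists and the lineage given to each gene were chosen with earlier results of these data known. Alternatives are in the closing section. A gene of the partner list is not reported here.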

Additional observations from a re-analysis of the deposited data

Results flagged for a closer look

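Directions opposed between classes are given here as values. For each gene they are the most extreme folds past 1.5-fold with intervals clear of no change, and no lower limit on CPM was set. In none of these pairs was the difference between classes tested. In *Enl*-T1 over *Enl*-WT, *Cdh6* was 2.95 times (2.42 to 3.61) in NP1-like cells and 0.224 times (0.175 to 0.284) in intermediate-like cells. *Cdh2* was 4.61 times (2.73 to 7.74) in podocyte-like cells and 0.225 times (0.0558 to 0.678) in ureteric tip-like cells, where the counts were 19 and 4 UMIs (3.78 and 0.852 CPM). *Cdh4* was 2.49 times (1.54 to 3.94) in proximal tubule-like and 0.239 times (0.169 to 0.329) in podocyte-like cells. *Cdh11* was 2.51 times (1.18 to 5.14) in proximal tubule-like cells, on 24 and 13 UMIs, and 0.357 times (0.148 to 0.782) in ureteric tip-like cells, on 27 and 9 UMIs (5.37 and 1.92 CPM). The proximal tubule-like and podocyte-like cells of *Enl*-T1 had low levels of the markers that name them.

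In *Enl*-T1 TDI-11055 over *Enl*-T1, *Cdh4* was 2.14 times (1.48 to 3.14) in podocyte-like and 0.348 times (0.275 to 0.438) in intermediate-like cells. *Cdh16* was 1.51 times (1.35 to 1.68) in urothelium-like and 0.313 times (0.199 to 0.482) in NP1-like cells, where it had 75 and 31 UMIs.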

How the results depend on the processing

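No paired analysis was possible because each group had 1 library and the labels gave no pairing between them. In the lineage of each gene, 16 log2 folds were recomputed under 11 alternatives, and 11 of the 16 kept their sign in all of them. Exceptions for *Enl*-T1 over *Enl*-WT were *Cdh1* (-0.25, up to 0.05), *Cdh5* (-0.28, up to 0.03) and *Cdh11* (-0.21, up to 0.10), each under median-of-ratios scaling, and *Cdh16* (-0.15, up to 0.25 with no upper gene limit). For *Cdh2* the inhibitor library over *Enl*-T1 gave -0.05, and 0.14 among female cells. Of the 8 members, 2 were past 1.5-fold in *Enl*-T1 over *Enl*-WT, *Cdh3* (-0.64) and *Cdh6* (-0.86), both lower. The count was 1 under each of 3 alternatives, a total without mitochondrial, ribosomal protein and haemoglobin genes, median-of-ratios scaling and no upper gene limit. Under median-of-ratios scaling that 1 was neither of the 2 but *Cdh2*, which was higher at 0.94, while *Cdh6* was at -0.45. For the inhibitor library over *Enl*-T1 the count was 4, and 2 with clusters held to *Enl*-WT shares. Of all genes, by lineage, 26.9% to 38.3% were that much lower and 5.6% to 7.0% higher in *Enl*-T1 over *Enl*-WT. For the inhibitor library over *Enl*-T1 these shares were 7.39% to 18.7% and 7.36% to 10.8%. Holding clusters to *Enl*-WT shares, the removal of clusters of doubtful origin and the NP1-like clusters taken alone were chosen after the data were seen. Without thinning, the members with a lower share of cells in *Enl*-T1 were 0 in place of 7, and the pairs found in at least 5% of a class were 21 in each library in place of 12 (*Enl*-WT), 11 (*Enl*-T1) and 3 (the inhibitor library). The count of members was not set beside a count over all genes. With 1 CPM added in place of 10 before the log, 14 of the 24 most alike genes remained. Removing the highest doublet scores moved 0 of 8 summary counts past 1.5 times and 0 of 37 single values beyond their intervals. The number of cells limits the named stromal classes of the inhibitor library, which held 10 to 98 cells.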

Other observations

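Of 15 further cadherins named *Cdh* and a number, 4 reached 20 CPM in some class. *Cdh10* reached 48.7 CPM in an unnamed stromal cluster of *Enl*-T1, *Cdh9* 36.8 CPM in ureteric stroma-like cells of *Enl*-T1, *Cdh24* 22.9 CPM in the same unnamed stromal cluster of *Enl*-WT and *Cdh8* 21.8 CPM in *Enl*-T1 cells of the nephron cluster led by *Sst* and *Akap12*. Over all kept cells these 4 had 203, 183, 1080 and 139 UMIs.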
